A study of Mus musculus with 10 samples.

Results

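The mitosis genes are 42 genes whose products carry a cell through mitosis, from the kinases that start it to the proteins that separate the daughter cells. They were taken from a list of names, and each gene was read from 1 probe of a 1-colour microarray, the one with the highest mean over the 10 arrays. A probe was paired with 41 of the 42, out of 19096 genes with a paired probe on the array. Prc1, a crosslinker of spindle microtubules, had no paired probe and was not analysed here. The members were placed in 10 groups by the step at which they act.

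The arrays compared 5 lungs of WT mice with 5 lung squamous cell carcinomas (SCC). All mice were 13 months old and of the B6.129 strain. WT mice carried Lkb1f/f, the floxed alleles of the tumour suppressor kinase Lkb1 (Stk11), and received no other treatment. SCC came from CCSPiCreLkb1f/f mice, which carried the same floxed alleles and in addition an iCre recombinase driven by the promoter of the Club Cell Secretory Protein, so that Lkb1 was deleted in cells of the airway lining and their descendants while the rest of the animal kept the gene. WT RNA was made from the whole lung and SCC RNA from the whole tumour, so the groups differed in tissue as well as in genotype. The labels do not say whether the replicates of a group were separate animals, and the p-values therefore measure the spread between these samples. Stk11 itself was not analysed here, since no probe was paired with it.

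A cell enters mitosis when cyclin B and its kinase CDK1 are activated, after which the spindle attaches to the chromosomes at kinetochores. The spindle assembly checkpoint holds back the anaphase-promoting complex until every chromosome is attached, and the complex then marks cyclin B and securin for destruction so that the sister chromatids part. Most of these genes are transcribed late in the cell cycle, and in adult lung few cells divide. Their messages are therefore widely read as a sign of dividing cells in a tissue.

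Many genes of this kind share short elements near their start sites, a cell cycle genes homology region with the letters TTTGAA (or in some genes TTTAAA), which the DREAM and B-MYB complexes bind, and CCAAT boxes, which the factor NF-Y binds. Promoter windows from RefSeq (build GRCm38.p6), 250 bases before to 50 after the start, were matched by symbol for 35 of the 42 genes. One of TTTGAA, written TTCAAA on the other strand, and the palindrome TTTAAA stood in the windows of 28 of the 35 (80%), in those of 43.8% of 121 other mitosis genes with a window, 30.6% of 36 DNA replication genes and 41.2% of 17 G1 phase genes, and in those of 30.6% of all 27025 genes in the table. The letters CCAAT, which read ATTGG on the other strand, occurred at least 2 times in 18 of the 35 (51.4%), in 30.6% of other mitosis genes, 33.3% of DNA replication genes and 23.5% of G1 phase genes, and in 13.3% of all genes. Both kinds of letters were found together in 68.6% of the matched mitosis genes, in 27.3% of other mitosis genes, in 19.4% of DNA replication genes, in 23.5% of G1 phase genes and in 12.2% of all genes. These shares describe letters in a fixed window, and no factor binding was measured. Of the measured members all 23 whose window held both kinds were called higher in SCC by the rule given with the comparison. So were 9 of the 11 whose window lacked 1 or both, among them Melk, Mad2l1, Nuf2 and Nusap1, with neither. Over all genes 11.6% were called higher by their brightest tested probe. Ttk, among the 23, and Kif2c, among the 9, were tested through SCC alone, so their calls carry no weight. The difference in share was not tested. The 250 bases before the start are printed for 8 genes chosen after their values were seen. Cdk1, Ccnb1, Cdc20, Ube2c and Top2a are members called higher whose windows hold both kinds of letters, Melk is one called higher whose window holds neither, and Bub1 and Pttg1 are the members whose brightest probe was not called. Capitals mark the letters just named, on either strand, which overlap once, in Ube2c.
Cdk1 (chr10:69352913-69353162, - strand): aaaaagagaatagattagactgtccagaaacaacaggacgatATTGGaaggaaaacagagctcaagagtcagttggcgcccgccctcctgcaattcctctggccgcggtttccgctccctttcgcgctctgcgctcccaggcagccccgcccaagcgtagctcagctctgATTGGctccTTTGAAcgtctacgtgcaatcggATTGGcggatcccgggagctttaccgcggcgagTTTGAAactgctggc
Ccnb1 (chr13:100786487-100786736, - strand): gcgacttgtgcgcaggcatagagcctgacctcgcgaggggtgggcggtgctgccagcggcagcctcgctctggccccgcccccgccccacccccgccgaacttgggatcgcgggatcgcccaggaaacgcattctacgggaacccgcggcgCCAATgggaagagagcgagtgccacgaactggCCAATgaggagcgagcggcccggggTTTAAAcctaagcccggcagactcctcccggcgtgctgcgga
Cdc20 (chr4:118437344-118437593, - strand): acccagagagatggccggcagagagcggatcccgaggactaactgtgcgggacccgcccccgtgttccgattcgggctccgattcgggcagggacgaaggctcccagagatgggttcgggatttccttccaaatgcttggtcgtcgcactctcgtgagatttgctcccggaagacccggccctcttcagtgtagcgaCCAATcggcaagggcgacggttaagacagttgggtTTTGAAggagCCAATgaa
Ube2c (chr2:164769679-164769928, + strand): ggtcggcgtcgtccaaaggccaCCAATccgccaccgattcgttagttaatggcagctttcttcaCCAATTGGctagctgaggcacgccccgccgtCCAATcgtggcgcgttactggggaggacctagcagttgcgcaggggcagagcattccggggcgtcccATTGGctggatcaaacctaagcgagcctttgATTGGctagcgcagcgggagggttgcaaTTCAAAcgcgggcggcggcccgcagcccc
Top2a (chr11:99024190-99024439, - strand): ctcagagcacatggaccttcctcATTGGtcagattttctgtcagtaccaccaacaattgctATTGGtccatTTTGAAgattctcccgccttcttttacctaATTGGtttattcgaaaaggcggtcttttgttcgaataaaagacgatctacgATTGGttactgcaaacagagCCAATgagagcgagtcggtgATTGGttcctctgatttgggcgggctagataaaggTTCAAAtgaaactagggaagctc
Melk (chr4:44300667-44300916, + strand): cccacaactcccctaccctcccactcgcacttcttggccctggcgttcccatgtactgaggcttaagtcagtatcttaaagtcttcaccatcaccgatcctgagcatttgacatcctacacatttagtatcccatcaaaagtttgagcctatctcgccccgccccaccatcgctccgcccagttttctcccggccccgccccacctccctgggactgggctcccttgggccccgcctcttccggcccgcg
Bub1 (chr2:127831860-127832109, - strand): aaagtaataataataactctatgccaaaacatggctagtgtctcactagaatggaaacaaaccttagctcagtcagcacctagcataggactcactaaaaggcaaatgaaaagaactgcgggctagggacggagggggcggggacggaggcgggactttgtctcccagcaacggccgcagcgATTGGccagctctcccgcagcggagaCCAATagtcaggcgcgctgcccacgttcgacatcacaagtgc
Pttg1 (chr11:43425982-43426231, - strand): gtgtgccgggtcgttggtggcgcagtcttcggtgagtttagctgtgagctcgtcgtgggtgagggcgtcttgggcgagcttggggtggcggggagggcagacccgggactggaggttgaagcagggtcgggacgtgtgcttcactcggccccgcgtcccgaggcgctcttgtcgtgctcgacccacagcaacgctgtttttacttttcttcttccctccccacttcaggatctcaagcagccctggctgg
The Cdk1 stretch held TTTGAA at 71 and 15 bases before the start and 3 CCAAT boxes. That of Top2a held 6 CCAAT boxes. The Bub1 stretch held 2 CCAAT boxes and neither form of the homology region. None of these letters was found before the start of Melk or of Pttg1.

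The question put to the arrays was which of these genes differed between the tumours and the lungs. Of 41 members, 39 were higher in SCC and 0 were lower (at an unadjusted p under 0.05, 40 and 0), where a call needed an adjusted p below 0.05 by limma over all 30374 tested probes and at least a 2-fold difference. Over all tested probes 9.92% were called higher and 13% lower, and over the brightest tested probe of each of 15586 genes 11.6% and 13.4%. Ttk, Cdc25c and Kif2c passed the filter on dim probes through SCC alone, so their calls carry no weight. Of the 38 members well above background on all 10 arrays 36 were called higher when testing was limited to such probes, against 8.58% of all such probes, and the median difference of the 38 was 2.39. By adjusted p alone 40 members were higher, and 22.4% of tested probes. The difference between the group means (SCC minus WT, log2 normalized intensity) had a median of 2.45 over the 41 members (2.41 with Ttk and Cdc25c, dim in WT, at their bounds), against -0.09 over all tested probes, and 34 members differed by at least 2 on this scale, as did 4.25% of tested probes. Every SCC array lay above every WT array for 39 members, against 16.3% of tested probes. Such complete separation fixes the exact two-sided permutation p at 0.00794, the smallest that 5 against 5 arrays allow, so that p is no further evidence. The adjusted p of the called members ran from 1.27e-05 to 0.00422 by limma. With background corrected by normexp, which models it on each array and adds an offset that shrinks differences of dim probes, all 41 differences were smaller, with a median of 1.82, and 9 moved by over 1.5 times, as given beside those genes. RNA from whole tissue cannot tell more or fewer cells of a type apart from more or less RNA per cell.

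**Figure D1:**
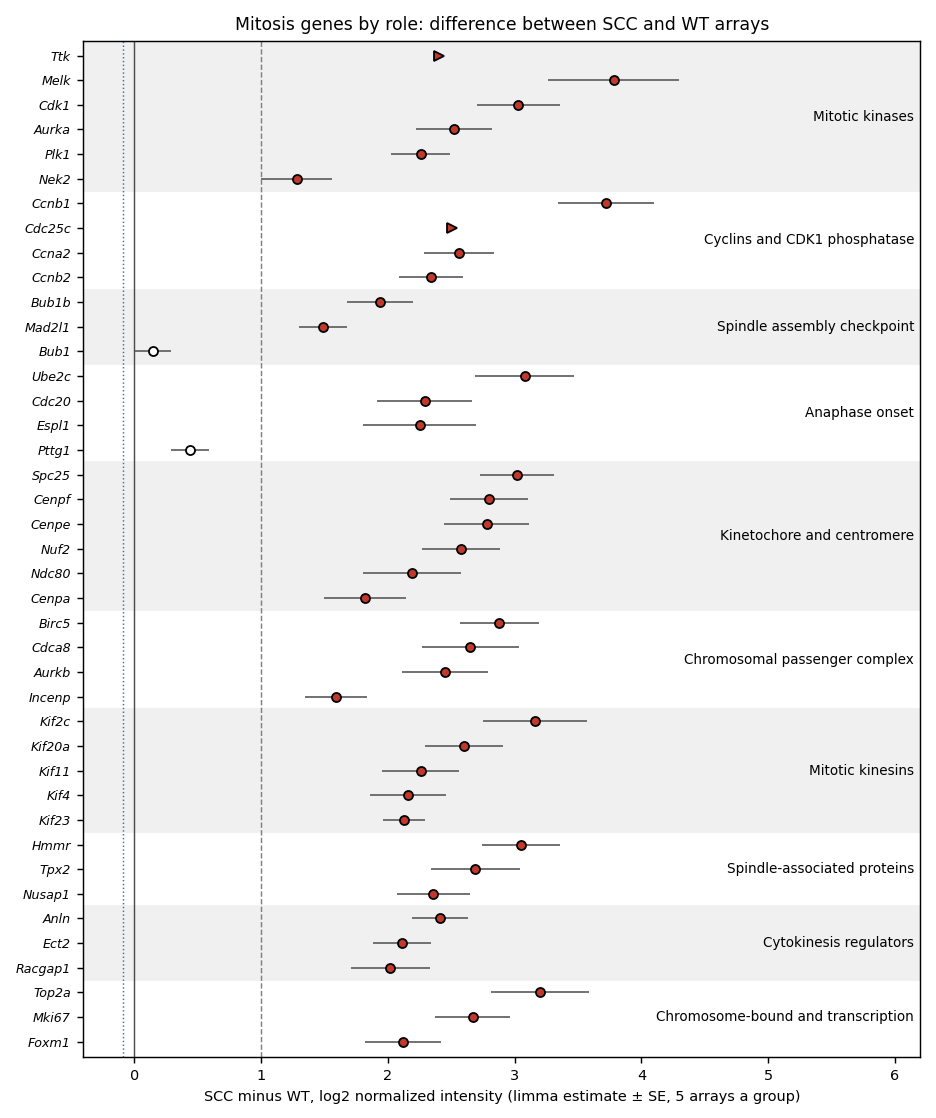
Difference between SCC and WT arrays (x axis, log2 normalized intensity) for the 41 mitosis genes with a probe (y axis), by role. Points are limma estimates, bars ± 1 SE, n = 5 arrays a group, filled points were called and open points were not, triangles are the lower bounds of Ttk (2.40) and Cdc25c (2.51), which were above background on no WT array, the dashed line marks 2-fold and the dotted line the median of all tested probes. Bub1 and Pttg1 lie below the 2-fold line, and the other points lie between 1.28 (Nek2) and 3.78 (Melk).

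The 5 mitotic kinases above background on all arrays were higher in SCC, by 1.28 to 3.78. Ttk, the checkpoint kinase that acts at unattached kinetochores, read 3.30, 2.55, 2.07, 3.55 and 1.66 on WT arrays 1 to 5 and 6.72, 5.18, 7.29, 7.52 and 5.48 on SCC arrays 1 to 5 (log2 normalized intensity, the unit of all array values here). No WT array had the Ttk probe well above background, and the groups did not overlap. Against the background limit of the WT arrays it was at least 5.28-fold higher in SCC, 2.40 on the log2 scale. The adjusted p (0.000346, limma) was computed with WT values below background, and the probe was tested because SCC was high, so the p is no support. Nek2, which separates the centrosomes, had the smallest difference of the kinases. It read 8.64, 7.70, 8.44, 7.62 and 8.94 in WT and 9.49, 9.29, 9.55, 10.12 and 9.29 in SCC. The highest WT array was replicate 5 and stood close under the lowest SCC arrays. The Nek2 difference was 1.28 ± 0.281 (adjusted p = 0.00422, limma), and 0.51 with slide as a fixed block, a fit described with the slides. Melk, a kinase abundant in mitotic cells, differed by 3.78 ± 0.513 (SE), Cdk1, the kinase that drives entry into mitosis, by 3.03 ± 0.33, Aurka, which builds the spindle poles, by 2.52 ± 0.301, and Plk1, which acts at several mitotic steps, by 2.26 ± 0.234. Under normexp the Ttk difference was 1.00 after rounding and fell just short of 2-fold.

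The 3 cyclins were higher in SCC. Ccnb1, cyclin B1, the partner of CDK1, read 6.24, 5.45, 5.52, 5.50 and 4.85 in WT and 9.43, 7.89, 9.64, 9.84 and 9.36 in SCC. The SCC arrays lay far above the WT arrays, with SCC replicate 2 the lowest of them, and the difference was 3.72 ± 0.376 (adjusted p = 5.01e-05, limma), or 2.35 under normexp. Ccnb2, cyclin B2, had the smallest difference of the group and read 10.63, 10.25, 10.18, 10.30 and 9.67 in WT and 12.72, 11.69, 12.67, 12.88 and 12.77 in SCC, a difference of 2.34 ± 0.25 (adjusted p = 6.55e-05, limma). Ccna2, cyclin A2, which serves S phase and early mitosis, differed by 2.56 ± 0.278. Cdc25c, the phosphatase that removes the inhibitory phosphates of CDK1, was not well above background on any WT array and was at least 5.69-fold higher in SCC. Its adjusted p (4.91e-05, limma) is no support, as for Ttk. Its difference was 0.97 under normexp, below 2-fold.

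Among 3 genes of the spindle assembly checkpoint, 2 were called. Bub1b, which encodes BubR1, an inhibitor of the anaphase-promoting complex, read 7.52, 7.31, 7.16, 7.38 and 7.16 in WT and 9.28, 8.25, 9.73, 9.69 and 9.29 in SCC and differed by 1.94 ± 0.258 (adjusted p = 0.000243, limma). Mad2l1, the Mad2 subunit of the same inhibitor, differed by 1.49 ± 0.189. Bub1, the kinase that recruits checkpoint proteins to kinetochores, read 8.55, 8.56, 8.71, 8.84 and 9.04 in WT and 8.78, 8.59, 9.20, 8.84 and 9.05 in SCC. These groups overlapped almost fully, and the difference of 0.15 ± 0.143 was not called (adjusted p = 0.402, limma). A second, dimmer probe of Bub1, looked at after the values of the first were seen, read 8.13, 7.79, 7.59, 7.84 and 7.43 in WT and 9.62, 8.11, 9.56, 9.99 and 9.43 in SCC and was called higher, by 1.59 (adjusted p = 0.00259, limma). The 2 probes, annotated to different transcript records of Bub1, were thus at odds, and the mean of both differed by 0.87, below 2-fold. Whether they read different transcripts was not tested. Over the 41 genes, 16 had more than 1 probe, and 16 of their dimmer probes could be tested. Of these, 8 were well above background on at most 2 WT arrays and passed the filter on dim probes through SCC alone, so that they give no second reading of the difference. The other 8 were well above background on at least 4 WT arrays and differed by 1.59 to 3.52, within 0.5 of the brightest probe in 7 of the 8, the exception being Bub1.

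Of 4 genes that act at anaphase onset, 3 were called. Ube2c, the ubiquitin-conjugating enzyme of the anaphase-promoting complex, read 8.94, 8.11, 8.09, 8.43 and 7.60 in WT and 11.48, 9.88, 11.78, 11.89 and 11.53 in SCC, without overlap, and differed by 3.08 ± 0.392 (adjusted p = 0.000184, limma). Cdc20, an activator of the complex, differed by 2.29 ± 0.375. Espl1, the protease separase that cuts cohesin, differed by 2.25 ± 0.445, or 1.27 under normexp. Pttg1, which encodes securin, the inhibitor of separase, read 11.89, 11.81, 11.90, 11.89 and 11.87 in WT and 12.35, 11.74, 12.41, 12.59 and 12.47 in SCC. The WT arrays of Pttg1 had the smallest spread of any member (SD 0.039, n = 5), and SCC replicate 2 lay below all of them while the other 4 SCC arrays lay above. The difference of 0.44 ± 0.149 passed the adjusted p (0.0343, limma) but not the 2-fold limit. With any array other than SCC replicate 2 left out, the adjusted p of Pttg1 was 0.0582 to 0.0775, without SCC replicate 2 it was 0.000122, and with slide as a fixed block 0.49.

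The 6 members at the kinetochore and centromere were higher in SCC, by 1.82 to 3.02. Spc25, a subunit of the Ndc80 complex that holds microtubules, read 7.78, 7.22, 7.14, 7.32 and 6.70 in WT and 10.26, 9.24, 10.63, 10.65 and 10.47 in SCC and differed by 3.02 ± 0.291 (adjusted p = 3.91e-05, limma). Its partners Ndc80 and Nuf2 differed by 2.19 ± 0.387 (1.26 under normexp) and 2.58 ± 0.308. Cenpa, the histone variant that marks centromeres, had the smallest difference and read 8.54, 8.44, 8.12, 8.11 and 8.09 in WT and 10.37, 8.76, 10.40, 10.57 and 10.29 in SCC. SCC replicate 2 lay just above the highest WT array, the other SCC arrays lay far above, and the difference was 1.82 ± 0.32 (adjusted p = 0.00125, limma). Cenpe, a kinetochore motor, and Cenpf differed by 2.78 ± 0.335 and 2.80 ± 0.307.

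The chromosomal passenger complex corrects faulty attachments and directs cytokinesis, and its 4 members were higher in SCC. Birc5, which encodes survivin, read 10.47, 9.91, 10.12, 10.16 and 9.50 in WT and 13.15, 11.75, 13.19, 13.41 and 13.06 in SCC and differed by 2.88 ± 0.311 (adjusted p = 7.05e-05, limma). Incenp, its scaffold, read 11.68, 11.52, 11.46, 11.53 and 11.46 in WT and 13.34, 12.12, 13.29, 13.55 and 13.32 in SCC, and differed by 1.59 ± 0.242 (adjusted p = 0.000523, limma). Both genes separated the groups on every array, and in both SCC replicate 2 was the lowest tumour. Cdca8 (borealin) and the kinase Aurkb differed by 2.65 ± 0.384 and 2.45 ± 0.342, and Aurkb by 1.50 under normexp.

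The 5 mitotic kinesins are proteins of the motor family that act on spindle microtubules. Those other than Kif2c were above background on all arrays and higher in SCC. Kif2c, which takes microtubules apart at kinetochores, read 4.84, 4.05, 4.03, 4.46 and 3.99 in WT and 7.53, 5.83, 7.67, 8.11 and 8.04 in SCC and differed by 3.16 ± 0.409 (adjusted p = 0.000203, limma). Only 2 of the 5 WT arrays had the Kif2c probe well above background, so this difference rests in part on WT values at background and its p is no support. Under normexp the difference was 1.27. Kif23, a motor of the central spindle, read 8.39, 8.05, 8.01, 7.95 and 7.70 in WT and 10.16, 9.87, 10.21, 10.58 and 9.91 in SCC. Its difference of 2.13 ± 0.166 was the smallest of the kinesins and had the lowest adjusted p of the 41 members (1.27e-05, limma), with SDs of 0.25 in WT and 0.29 in SCC (n = 5 each). Kif11, which pushes the poles apart, differed by 2.26 ± 0.304 (1.15 under normexp), the chromokinesin Kif4 by 2.16 ± 0.297 and Kif20a, a motor of the cleavage furrow, by 2.60 ± 0.307.

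The 3 measured spindle-associated proteins and the 3 cytokinesis regulators were higher in SCC. Hmmr, which organizes spindle poles, read 7.64, 6.86, 6.98, 6.98 and 6.51 in WT and 10.27, 8.97, 10.32, 10.55 and 10.08 in SCC, a difference of 3.05 ± 0.308 (adjusted p = 5.04e-05, limma). Nusap1, which binds microtubules near chromatin, read 8.32, 7.66, 7.75, 7.83 and 7.17 in WT and 10.16, 9.13, 10.45, 10.45 and 10.36 in SCC, a difference of 2.36 ± 0.288 (adjusted p = 0.000142, limma). In both the groups stood apart on every array, and Tpx2, the activator of Aurora A, differed by 2.69 ± 0.35. Anln, the furrow protein anillin, read 6.37, 5.78, 5.93, 5.67 and 5.39 in WT and 8.03, 7.69, 8.59, 8.46 and 8.44 in SCC, a difference of 2.41 ± 0.22 (adjusted p = 2.88e-05, limma), or 1.24 under normexp. Racgap1, which forms centralspindlin with Kif23, read 7.53, 7.15, 6.97, 7.57 and 7.02 in WT and 9.37, 8.04, 9.63, 9.75 and 9.56 in SCC, a difference of 2.02 ± 0.313 (adjusted p = 0.000594, limma). The lowest SCC array of Racgap1 was 8.04 and its highest WT array 7.57. Ect2, which activates the GTPase RhoA in the furrow, differed by 2.11 ± 0.228.

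The last 3 members act on chromosomes or on transcription. Top2a, the topoisomerase that untangles sister chromatids, read 6.94, 6.29, 6.53, 6.55 and 5.93 in WT and 9.77, 8.13, 10.19, 10.12 and 10.01 in SCC and differed by 3.20 ± 0.384 (adjusted p = 0.000131, limma). Foxm1, a transcription factor of late cell cycle genes, read 7.58, 7.14, 7.13, 7.22 and 6.87 in WT and 9.33, 8.16, 9.64, 9.59 and 9.84 in SCC and differed by 2.12 ± 0.297 (adjusted p = 0.000329, limma). Neither gene overlapped between the groups. Mki67, the source of the Ki-67 antigen that coats mitotic chromosomes, differed by 2.67 ± 0.295.

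**Figure D2:**
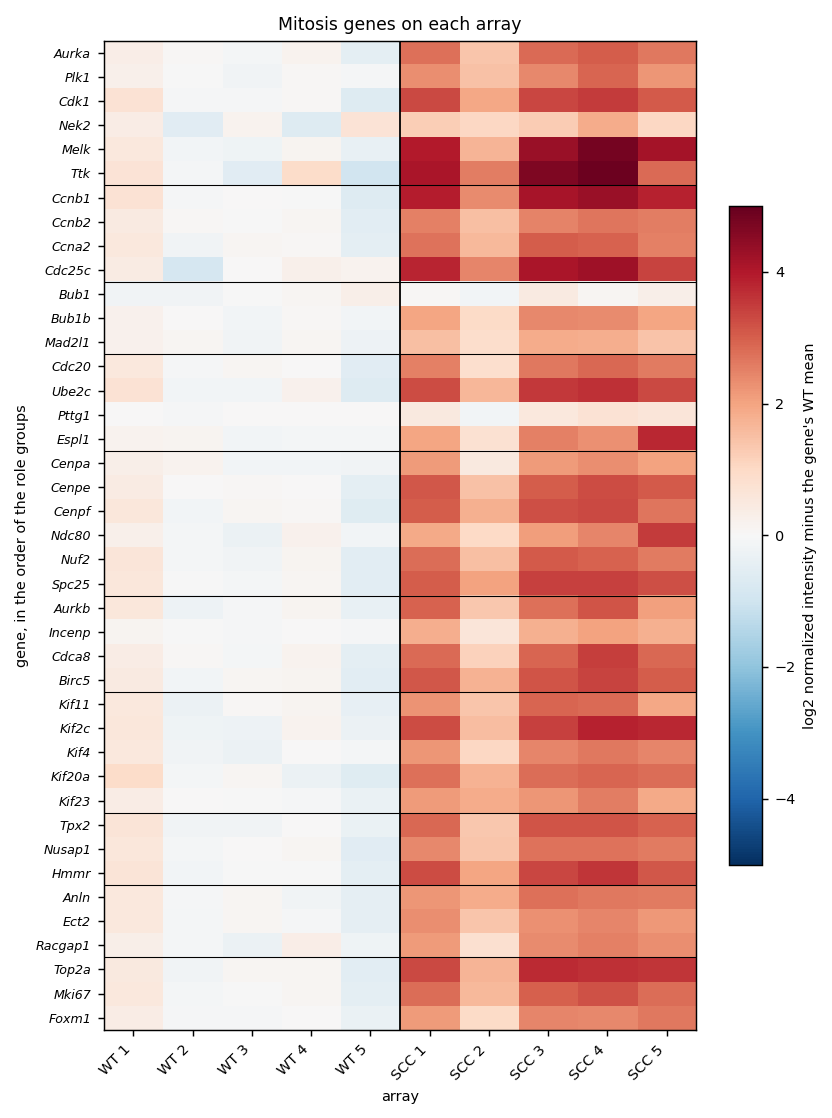
The 41 mitosis genes (rows, in the order of the role groups, separated by lines) on the 5 WT and 5 SCC arrays (columns). Colour is log2 normalized intensity minus the gene's mean over the WT arrays, from -5 (blue) to 5 (red). Red fills the SCC columns except in the rows of Bub1 and Pttg1, and the column of SCC replicate 2 is the palest of the tumours.

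The members varied together among the arrays of a group. SCC replicate 2 was the lowest tumour for all 41 members, whereas it was the lowest for 71.2% of the probes called higher and for 27% of all tested probes. Its median member stood 1.45 above the gene's WT mean, and on the other 4 SCC arrays this median was 2.64 to 2.92. SCC replicate 4 was the highest tumour for 29 members. Among lungs, WT replicate 1 was the highest array for 36 members, with a median of 0.51 above the WT mean, and WT replicate 5 the lowest for 30, at -0.44. The SD over the SCC arrays exceeded that over the WT arrays for 39 of 41 members. Without SCC replicate 2, and also without SCC replicates 2 and 5 together, a setting added after the data were seen, the same 39 genes were called higher.

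**Figure D3:**
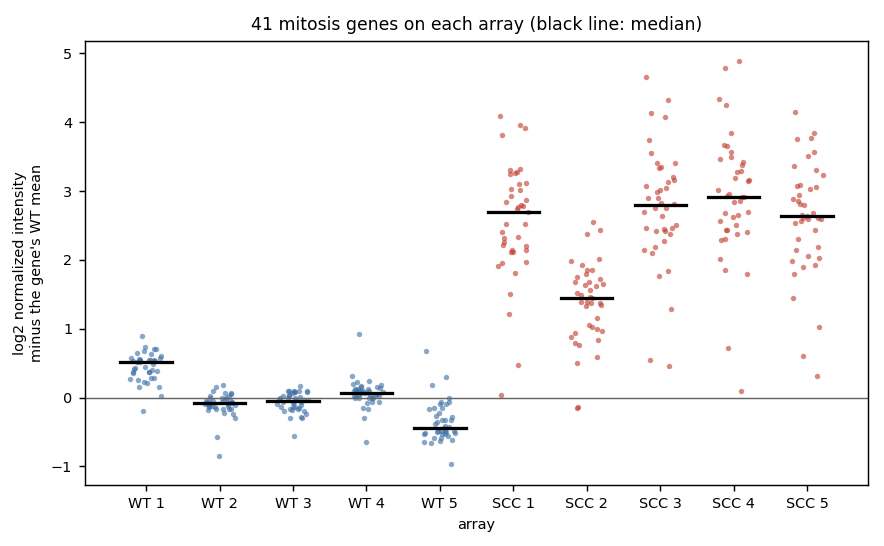
Log2 normalized intensity of each of the 41 mitosis genes minus its WT mean (y axis) on each array (x axis), with the median as a black line. WT medians lie between -0.44 and 0.51, SCC replicate 2 is at 1.45 and the other SCC arrays are between 2.64 and 2.92.

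Markers of the cell types in lung and tumour were read on the same arrays. The mean of 7 squamous and basal epithelial markers was 4.12 to 4.74 on WT arrays and 10.30 to 13.63 on SCC arrays. All 7 were called higher, against 11.6% of all genes by their brightest tested probe. No lung gave a signal of Dsg3, Krt6a or Sprr1b that stood clear of background. These 3 were tested through SCC alone, so their calls carry no weight, and the WT means rest in part on values at background. The other 4 were well above background on all arrays. SCC replicate 2 had the lowest squamous mean, 10.30, against 13.31 or more on the other tumours. Of the tumours it had the highest endothelial mean (6 markers, 12.12, against 10.92 to 11.20 in the others and 13.49 to 13.69 in WT) and the highest alveolar type 2 mean (6 markers, 15.24, against 14.56 to 14.77 and 15.30 to 15.40 in WT). It was also the highest tumour in the means of club cell (17.72), fibroblast (13.42), B cell (7.44) and cardiac muscle markers (9.82), but not of alveolar type 1 (13.11, others 12.96 to 13.47) or ciliated cell markers (9.67, highest 10.39), and it was the lowest for T cell (7.41) and macrophage markers (11.80). Means of 5 neutrophil markers were 9.90 on SCC replicate 2, 12.44 to 12.69 on the other tumours and 10.20 to 11.00 in WT, and 3 of the 5 were called higher. Called lower were 6 of 6 endothelial, 4 of 4 tested B cell, 4 of 5 cardiac muscle and 4 of 6 T cell markers. So were 3 of 4 alveolar type 1, 3 of 6 fibroblast, 2 of 3 club cell and 1 of 5 ciliated cell markers, but no alveolar type 2 marker. Over all genes 13.4% were called lower by their brightest probe. Of 6 macrophage markers 1 was called higher. Apart from the 3 squamous genes named, no marker with a probe was below background on all arrays of a group. The part of such cells in the differences of the mitosis genes was not tested. SCC replicate 5 had 90.2% of probes well above background, against 71.0% to 74.5% on the other 9 arrays.

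The arrays lay on 3 slides, and slide and group overlapped only in part. Slide 1 held WT replicates 1 to 4, slide 2 held WT replicate 5 and SCC replicates 1 to 3, and slide 3 held SCC replicates 4 and 5. Within slide 2, all 3 SCC arrays stood above the WT array for 39 of 41 members, all but Bub1 and Pttg1, against 33.4% of tested probes, and the median of the members' mean differences was 2.74, against -0.02 over all tested probes. WT replicate 5 was the lowest lung for 30 of the 41, which widens the differences within this slide. With slide as a fixed block in limma, which leaves the contrast to slide 2 and its single WT array, assumed to vary like the arrays of the other slides, 33 members were called higher and 0 lower, while calls over all probes went from 6954 to 2989. The members no longer called were Nek2, Espl1, Cenpa, Incenp, Ndc80 and Racgap1. The difference of Nek2 was 0.51 (adjusted p = 0.514). The others differed by 1.83 for Espl1 (adjusted p = 0.125), 1.75 for Cenpa (0.092), 1.45 for Incenp (0.0661), 1.81 for Ndc80 (0.0603) and 1.99 for Racgap1 (0.0564). Bub1 turned to -0.18. With slide as a random block, whose estimated correlation was -0.017, 39 were called.

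**Figure D4:**
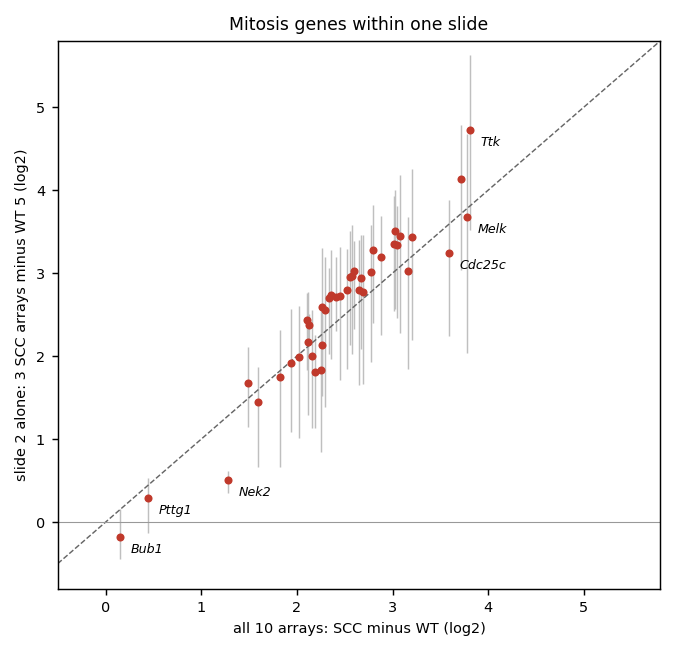
Each mitosis gene by its difference over all 10 arrays (x axis, SCC minus WT, log2) and over slide 2 alone (y axis, mean of 3 SCC arrays minus WT replicate 5, Ttk and Cdc25c against WT values below background, with a grey line from the smallest to the largest of the 3). The dashed line marks equal values. Nek2 falls from 1.28 to 0.51, and Bub1 from 0.15 to -0.18.

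Other genes of mitosis and of the cell cycle were read from lists chosen with earlier results known. Of 148 other mitosis genes, 61 were called higher (41.2%) and 2 lower, with a median difference of 0.54. Over all genes 11.6% and 13.4% were called higher and lower by their brightest probe. Testing limited to probes well above background on all 10 arrays called 56 of 142 higher, against 8.58% of all such probes. The share differed by list. Among 34 other kinetochore and centromere genes 21 were higher (median 1.31), led by Sgo1, the shugoshin that protects centromeric cohesin (3.03 ± 0.334), Cenpm (2.82) and Ska1 (2.70). Among 19 regulators of mitotic entry and exit 11 were higher (median 1.46), led by the kinase Pbk (2.97), cyclin F, Ccnf (2.61), and Mastl, the Greatwall kinase (2.34). Among 32 genes of the spindle, the centrosome and further kinesins 15 were higher (median 0.93), and Depdc1a had the largest difference (2.92). Of 12 cytokinesis genes 4 were higher, led by Cep55, which prepares abscission (3.02), and Kif13a, a kinesin, was lower (-1.13). Of 13 genes of the DREAM and B-MYB complexes Mybl2, which encodes B-MYB, was higher (2.10), Lin52 was lower (-1.29) and 11 were not called. The 1 of 13 called higher, 7.69%, is no more than the share over all genes.

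The remaining lists hold complexes that also work outside mitosis. Of 19 condensin and cohesin genes 6 were higher, led by Esco2, which acetylates cohesin (3.01), the condensin subunit Ncapg (2.71) and Cdca5, the cohesin stabilizer sororin (2.53), and the median was 0.36. The core cohesin genes Smc1a, Smc3, Rad21, Stag1 and Stag2, named after their values were seen, had differences between -0.50 and -0.25. All 5 passed the adjusted p (0.000729 to 0.0241, limma), and none reached 2-fold. Of the 13 genes of this list that were not called, 11 passed the adjusted p, 4 of them higher in SCC and 7 lower. Over the whole list 17 of 19 passed it. By adjusted p alone 14878 of all 30374 tested probes passed, 6790 higher and 8088 lower. Of 19 genes of the anaphase-promoting complex and its regulators 3 were called, the checkpoint-silencing ATPase Trip13 (1.93), the subunit Anapc15 (1.38) and the inhibitor Fbxo5 (1.13), and the median was -0.09. These 3 are 15.8% of the list, near the 11.6% over all genes. Of the 16 not called 9 passed the adjusted p, 3 of them higher in SCC and 6 lower. Over the whole list 12 of 19 passed it, to be read beside the 14878 of 30374 tested probes. The differences in share between lists were not tested.

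DNA replication and the G1 phase were set beside mitosis. Of 45 DNA replication genes 23 were higher and 0 lower by limma (35 and 3 at an unadjusted p under 0.05). The median difference was 1.05. Testing limited to probes well above background on all 10 arrays called 21 of 43 higher. Ticrr, an origin firing factor (2.80), Uhrf1, which maintains DNA methylation (2.41), and Mcm10 (2.33) led the genes called. Ticrr was well above background on 1 WT array and was tested through SCC alone, so its call carries no weight. Of 21 G1 phase genes 3 were higher, cyclin E1, Ccne1 (2.18), cyclin E2, Ccne2 (1.47), and Cdk6 (1.29), 2 were lower, the CDK inhibitors Cdkn1c (-1.95) and Cdkn1b (-1.18), and the median was 0.04. The shares, 14.3% higher and 9.52% lower, are near those over all genes (11.6% and 13.4%). Without SCC replicate 2, 5 G1 phase genes were higher and 3 lower. With slide as a fixed block the contrast rests on the single WT array of slide 2. Counts under that setting are given at the end, with the calls over all tested probes. The 41 mitosis genes had the highest median of the cell cycle lists read here, 2.45, and the middle 50% of all tested probes ran from -0.60 to 0.40.

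**Figure D5:**
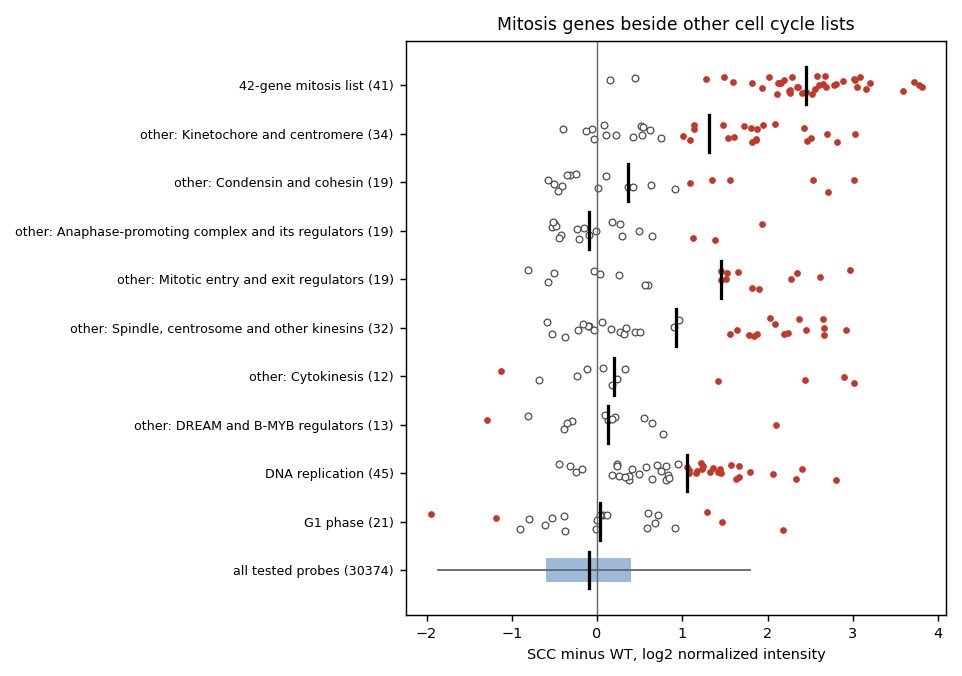
Difference between SCC and WT (x axis, log2 normalized intensity) for the genes of each list (y axis, number tested in parentheses). Filled points were called, open points were not, black bars are medians, and the box and line for all tested probes span the middle 50% and 90%. The median of the 42-gene mitosis list is 2.45, that of DNA replication 1.05 and that of G1 phase 0.04.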

How the data were processed

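RNA of 5 WT lungs and 5 SCC was labelled with Cy3 and hybridised to Agilent whole mouse genome 4 x 44K arrays, 1 sample an array. The deposited scanner tables, made by the authors with Agilent Feature Extraction (version 12, per the labels), hold background-subtracted, processed intensity for each spot, and a deposited table of the series holds the authors' log2 values, which matched quantile-normalized log2 processed intensity (r of at least 0.9999 on every array). Groups came from the sample titles. Control spots were left out, spots of a probe were averaged (43379 spots, 41174 probes), and log2 processed intensities were quantile-normalized between arrays, as the study's methods state. The array's transcript accessions were paired with symbols through a RefSeq gene table, which named 28223 probes (68.55%). A probe was tested if well above background on at least 4 of 5 arrays of a group, which kept 30374. No probe was saturated.

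Differences were tested with limma (3.58.1, R 4.3.3), two-sided, with Benjamini-Hochberg adjustment over all tested probes, in place of the methods' one-way ANOVA. A call needed an adjusted p below 0.05 and 2-fold. Where no array of a group had a probe above background, the fold is a bound against the mean, over that group's arrays, of a limit set on each array: its lowest signal that was well above background, or the dim probe's signal where that was higher. Values of single arrays carry no counting error, and the number of arrays limits the precision. In data simulated for the SCC against WT comparison with 30374 probes, 155 of 200 probes changed by 2 on the log2 scale were called (77.5%), and 5 others. In each role group the members with the largest and the smallest difference are given on every array, and of each further list up to 3 genes called with the largest difference. Members, lists and rules were chosen with earlier results of these data known, so no list was tested as a set. Alternatives were 75th percentile scaling, normexp background correction (offset 50, on the median signal, since the mean signal was not used here), the series table, 2 filters on dim probes, slide and replicate blocks, array weights, the methods' t-test, other thresholds, the mean of a gene's probes and each array left out. Replicate numbers did not pair samples.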

Additional observations from a re-analysis of the deposited data

Results flagged for a closer look

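In groups of 5 arrays, 86 sets of values were examined for an end value far from the rest, by its gap to the nearest array divided by the range, with 0.71 as the 95% limit. Chance alone passes this limit in about 1 in 20 sets. It was passed in 25, of which 24 were low on SCC replicate 2. The median shift of the mitosis genes had a gap of 0.810, with 1.45 on SCC replicate 2 and 2.64 on the next array. The gap was 0.874 for Cenpe, 0.849 for Cenpa, 0.842 for Kif20a, 0.841 for Tpx2, 0.832 for Cdc20, 0.829 for Ccnb2 and 0.819 for Incenp. It was 0.798 for Top2a, 0.794 for Ube2c, 0.789 for Birc5, 0.780 for Racgap1, 0.779 for Nusap1, 0.773 for Aurka and 0.752 for Ccnb1. It was 0.745 for both Kif2c and Mki67, 0.736 for Melk, 0.730 for Cdca8, 0.729 for both Cdk1 and Kif4, 0.727 for Ect2, 0.720 for Spc25 and 0.716 for Pttg1. These genes were read on the same array and are not separate events. The remaining set was the share of probes well above background, where SCC replicate 5 stood high with a gap of 0.861 (90.2%, the next SCC array 73.8%).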

How the results depend on the processing

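The 39 mitosis genes called higher remained the same genes with any 1 array left out and with slide as a random block, the series table or the methods' t-test. Alternative values of single members numbered 940, without the settings that change only the thresholds, adjusted p alone and 4-fold. In 931 of the 940 the call and direction held. Of the others 8 lost the call, and Bub1 turned to -0.18 with slide as a fixed block. Calls over all tested probes were 6385 to 8135 with 1 array left out, 3969 under normexp, 2989 with slide as a fixed block, 14878 by adjusted p alone and 2533 at 4-fold. Under 75th percentile scaling the median of all probes moved from -0.09 to 0.03 and calls were 3504 higher and 3080 lower, against 3014 and 3940, and 39 mitosis genes were higher. Mitosis genes called higher numbered 37 under normexp, 33 with slide as a fixed block, 34 at 4-fold, 40 by adjusted p alone and 36 with every array above background, a filter that drops Ttk, Cdc25c and Kif2c.

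Other mitosis genes called higher were 37 with slide as a fixed block and 28 at 4-fold, and those called lower 1 under normexp, 22 by adjusted p alone and 0 at 4-fold. With 1 array left out they were 57 to 64 higher and 2 to 3 lower. DNA replication genes called higher were 9 with slide as a fixed block, 4 at 4-fold and 21 to 25 with 1 array left out, and 2 were lower by adjusted p alone. G1 phase genes called higher were 1 under normexp, 0 with slide as a fixed block, 5 with array weights, 5 by adjusted p alone, 1 at 4-fold, 3 to 5 with 1 array left out (5 without SCC replicate 2) and 5 without SCC replicates 2 and 5. G1 phase genes called lower were 1 under normexp, 0 with slide as a fixed block, 8 by adjusted p alone, 0 at 4-fold, 1 with the mean of a gene's probes and 2 to 3 with 1 array left out. The cause of these changes was not tested, beyond the fewer arrays that the slide block leaves to compare and the thresholds themselves.

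The replicate numbers did not pair samples: deviations of arrays with the same number correlated between -0.103 and 0.009, and 0 of 5 pairs correlated best within their own number. With a replicate block 6571 probes and 39 mitosis genes higher and 0 lower were called, and 60 other mitosis genes, 23 replication genes and 3 G1 phase genes were higher. Dim probes limit the low end: Ttk and Cdc25c have a bound in WT, not a level.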
